A study of Homo sapiens with 13 samples.

Results

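PREX1, ADAMTS7, TINAGL1 and BLVRB were chosen by the size of their difference between FK866-resistant and parental CCRF-CEM cells on arrays of mock-treated cells. All non-control probes carrying one of these names were taken, which gave 4 genes and 7 probes out of 25940 names and 34127 probes on the array. PREX1, TINAGL1 and BLVRB had 1 probe each and ADAMTS7 had 4.

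CCRF-CEM cells come from a T cell acute lymphoblastic leukaemia. FK866 blocks NAMPT, the enzyme that makes NAD precursors from nicotinamide. The parental line (CEM PA) and a resistant population raised in stepwise higher FK866 (CEM RES) were each given either vehicle (mock) or 5 nM FK866 for 48 h, with 3 CEM PA mock, 2 CEM PA FK866, 4 CEM RES mock and 4 CEM RES FK866 arrays, each from a sample that the labels call a biological replicate. CEM RES is 1 population grown under selection, so its arrays show that population and not resistance in general. The authors kept CEM RES in medium with FK866, at a higher dose than 5 nM, during routine passages. The sample titles say only mock, so whether FK866 was removed before the mock treatment is not known. Without drug, below, means on mock arrays. Total RNA was measured on 1-colour Agilent arrays with 60-base probes, and all values below are quantile-normalized log2 signals unless stated otherwise.

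PREX1 encodes P-Rex1, an exchange factor that loads GTP onto the small GTPase Rac when phosphoinositide signals and G protein beta-gamma subunits meet at the membrane, and it is best known from neutrophils. ADAMTS7 is a secreted metalloprotease of the family that cleaves matrix proteins such as cartilage oligomeric matrix protein. TINAGL1 encodes a secreted matrix glycoprotein related to tubulointerstitial nephritis antigen, with a cathepsin-like fold that lacks protease activity. BLVRB is the flavin reductase that also reduces biliverdin IX-beta, and it is abundant in red cells. None of these is a defining gene of T cells.

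The probes are shown first because later paragraphs describe the ADAMTS7 and TINAGL1 values by probe and by probe sequence. The 4 ADAMTS7 probes lie on the minus strand of chromosome 15 (hg19) at chr15:79051790-79051849, chr15:79058108-79058167, chr15:79058743-79058802 and chr15:79064010-79064069, in the order below. They begin at positions 5185, 4296, 3661 and 2444 of the transcript the array was designed on, so they do not overlap.
A_23_P11005: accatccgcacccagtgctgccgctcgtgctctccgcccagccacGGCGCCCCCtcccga
A_33_P3215557: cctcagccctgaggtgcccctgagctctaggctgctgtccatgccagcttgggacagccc
A_33_P3210762: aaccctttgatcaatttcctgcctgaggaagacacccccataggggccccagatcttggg
A_33_P3423718: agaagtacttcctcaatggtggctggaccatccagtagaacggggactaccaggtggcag

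A stretch of 30 bases is printed for each of the other genes. The TINAGL1 probe A_33_P3355266 lies at chr1:32052808-32052867 on the plus strand, the PREX1 probe A_23_P413641 at chr20:47241619-47241677 and the BLVRB probe A_33_P3360728 at chr19:40953701-40953760, both on the minus strand. Exon and UTR boundaries of hg19 were not used here.
TINAGL1: tcccaggcctctGGCGCCCCCactcaagac
PREX1: caaagaaaggtatgttgtctaacaggggac
BLVRB: aaggaagggggcAATAAAtgttgagccaag

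Capitals mark the 9 letters shared by the A_23_P11005 and TINAGL1 probes and, in BLVRB, AATAAA, the usual polyadenylation hexamer, which 7.67% of the array's probes hold. The G and C share was 75% in A_23_P11005, 66.7% in A_33_P3215557, 65% in TINAGL1, 55% in the other ADAMTS7 probes and 43.3% in PREX1 and BLVRB, against a median of 43.3% over all array probes. Only 0.319% of array probes were as rich in G and C as A_23_P11005. No other array probe shared 20 bases with any of the 7 on either strand.

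On mock and on FK866 arrays, PREX1 and BLVRB signal was far below the CEM PA level in CEM RES. Signal of the TINAGL1 probe and of the ADAMTS7 probe A_23_P11005 was far above it. The other ADAMTS7 probes did not show so large a gap. Under FK866, A_33_P3215557 differed by 2.03 and A_33_P3210762 by 0.31, and A_33_P3423718 was too dim to test. Whether A_23_P11005 and the TINAGL1 probe read transcripts of those genes was not tested. Because the genes were chosen by the mock arrays, the mock values are a description. The 6 FK866 arrays were not used in that choice and carry the test, a single limma model over 22717 probes. Each of these probes exceeded background clearly on all arrays of 1 or more groups, with Benjamini-Hochberg adjustment over all of them. The model takes its spread from all 13 arrays, mock arrays included. The FK866 arrays also come from the same populations and scan sessions as the mock arrays. The test therefore repeats the mock comparison and is not independent support for it. In that test 36.0% of the probes passed an adjusted p of 0.05 for a difference between the lines, with 4094 higher and 4083 lower in CEM RES (5313 and 3607 with 75th percentile scaling, which moved the median difference of all probes from 0.06 to 0.20). Without CEM PA FK866 replicate 1 the called probes fell from 8177 to 4186, and without replicate 2 to 5014. Of the 6 member probes that entered it, 3 were called higher and 2 lower in CEM RES, and the remaining ADAMTS7 probe was dropped as too dim. A probe entered through the group in which it was bright, so a count over the members that entered supports nothing by itself.

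No scan session held both lines, so line and session cannot be told apart. CEM PA replicate 1 of both treatments was scanned in session 1, the other CEM PA arrays in session 2 and all CEM RES arrays in session 3. As a check of the cell type, all 17 T lineage markers were well above background on all 13 arrays. Their summed signal lay between 17.85 and 18.1 (log2) on every array, with CD3D the brightest. Single markers did differ between the lines under FK866. CD5 (-1.84), GATA3 (-1.57), PTCRA (-1.42) and LAT (-0.76) were called lower in CEM RES. TCF7 (1.56), BCL11B (0.97), CD3G (0.96), CD3E (0.85) and CD247 (0.59) were called higher. Summed signals of the other lists ranged from 10.8 to 12.01 for 7 B lineage genes, 6.85 to 7.79 for 6 myeloid genes, 10.4 to 11.1 for 8 erythroid and megakaryocytic genes and 11.5 to 12.3 for 12 epithelial, fibroblast and endothelial genes. The haemoglobin gene HBB, EPCAM, CDH1, COL1A1, COL1A2, COL3A1 and the B cell gene CD22 were not well above background on any array. B lineage signal was lower in CEM RES, at 11.82 to 12.01 in CEM PA and 10.83 to 11.81 in CEM RES, and its part in the results below was not tested.

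**Figure D1:**
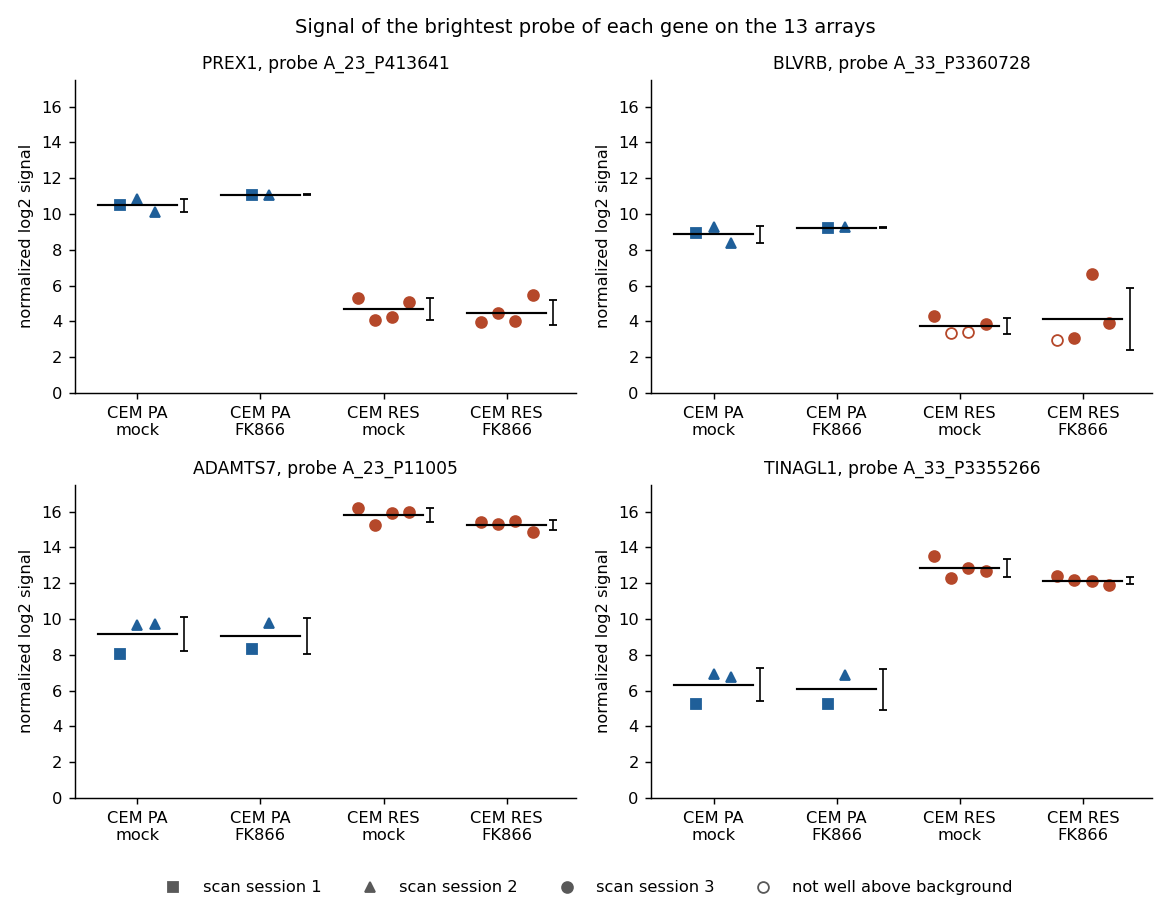
Normalized log2 signal of the brightest probe of PREX1, BLVRB, ADAMTS7 and TINAGL1 on each of the 13 arrays, by line and treatment. Points are arrays (shape: scan session, open: not well above background), horizontal lines are group means and the bars beside them are SD. The genes were chosen by the gap between the lines on mock arrays, so that gap is a description. In the ADAMTS7 and TINAGL1 panels the session 1 squares lie below the session 2 triangles.

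PREX1 fell from a strong signal to one near the lower end of the array. The 3 CEM PA mock arrays read 10.52, 10.83 and 10.11 and the 4 CEM RES mock arrays 5.33, 4.10, 4.25 and 5.06. Under FK866 CEM PA read 11.09 and 11.06 and CEM RES 3.97, 4.47, 4.02 and 5.50. Every CEM PA array was above every CEM RES array, and the probe stayed well above background on all 13 arrays, so no bound was needed for its level in CEM RES. On the scanner's own scale the processed signal was 943 to 2118 in CEM PA and 16.5 to 62.7 in CEM RES.

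Under FK866 PREX1 was 96.0-fold lower in CEM RES, a log2 difference of -6.58 (SE 0.44, adjusted p = 2.85e-06, limma), which ranked it 3 from the lowest of the 22717 probes. On mock arrays the difference was -5.80, at the same rank. With normexp background correction the difference under FK866 was -4.62. In CEM PA both FK866 arrays lay above all 3 mock arrays, by 0.57 within session 1 and 0.59 within session 2, but the mean difference of 0.59 (SE 0.46) did not pass the test (adjusted p = 0.632). In CEM RES the difference between FK866 and mock was -0.20 (SE 0.36, adjusted p = 1.00), at -0.66 on slide 5 and 0.27 on slide 6. The responses of the lines differed by -0.79 (SE 0.58, adjusted p = 0.632).

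BLVRB was the other gene low in CEM RES. CEM PA read 8.95, 9.27 and 8.36 on mock and 9.22 and 9.25 on FK866 arrays. CEM RES read 4.32, 3.36, 3.39 and 3.86 on mock and 2.94, 3.07, 6.66 and 3.89 on FK866 arrays. CEM RES FK866 replicate 3 stood well above the other CEM RES arrays and yet below every CEM PA array, so the lines did not overlap. Its processed signal was 140, where the other 7 CEM RES arrays read 7.82 to 22.3 and CEM PA 270 to 651.

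The BLVRB probe was well above background on all CEM PA arrays but on only 2 of 4 CEM RES mock and 3 of 4 CEM RES FK866 arrays. Its fold is therefore given as a bound, with each dim value raised to the lowest signal counted as well above background on that array. Bounds here and below hold for the main normalization only, and other background corrections can give smaller differences. BLVRB was at least 31.6-fold lower in CEM RES under FK866, where the fitted difference was -5.10 (SE 0.79, adjusted p = 5.3e-04, limma). It was at least 33.1-fold lower on mock arrays. Without CEM RES FK866 replicate 3 the difference under FK866 was -5.94. With normexp background correction it was -2.96, a smaller difference than the bound. The FK866 response was 0.38 (SE 0.84, adjusted p = 0.902) in CEM PA and 0.41 (SE 0.65, adjusted p = 1.00) in CEM RES, the latter falling to -0.43 without replicate 3 of the FK866 arrays.

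The ADAMTS7 probe A_23_P11005 was among the brightest signals in CEM RES. It read 8.05, 9.65 and 9.72 on CEM PA mock, 8.31 and 9.75 on CEM PA FK866, 16.19, 15.27, 15.91 and 15.96 on CEM RES mock and 15.39, 15.30, 15.48 and 14.85 on CEM RES FK866 arrays. The lines were far apart, and within CEM PA both session 1 arrays were lower than the 3 session 2 arrays. Processed signals were 216 and 217 in session 1, 709 to 851 in session 2 and 40242 to 83196 in CEM RES, with no saturated spot. Under FK866 the probe was 74.8-fold higher in CEM RES (log2 difference 6.22, SE 0.48, adjusted p = 8.9e-06, limma), the highest of the 22717 probes. On mock arrays it ranked second, at 6.69. The difference under FK866 was 5.50 without CEM PA FK866 replicate 1 and 6.94 without replicate 2.

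The other ADAMTS7 probes did not give that value. A_33_P3215557 read 6.44 to 6.64 over the 3 CEM PA mock arrays, 6.52 and 6.56 on CEM PA FK866, 10.18, 7.81, 9.79 and 8.84 on CEM RES mock and 8.65, 8.11, 9.88 and 7.69 on CEM RES FK866 arrays. It was above background everywhere and higher on each CEM RES array, by 2.03 under FK866 (SE 0.62, adjusted p = 0.0233, limma), or 4.10-fold. The call was lost without CEM PA FK866 replicate 1 or replicate 2 (adjusted p = 0.116 and 0.101) and with normexp background correction (1.48, adjusted p = 0.0581), against 0.00583 to 0.116 over all alternatives. CEM RES arrays spread widely on this probe (SD 1.06 on mock, 0.95 on FK866 arrays) while CEM PA arrays did not (SD 0.10 and 0.03).

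A_33_P3210762 sat near background in both lines. It was well above background on 2 of 3 CEM PA mock, 2 of 2 CEM PA FK866, 3 of 4 CEM RES mock and 4 of 4 CEM RES FK866 arrays. Its means were 3.70 ± 0.44 (SD, n = 3), 3.95 ± 0.38 (n = 2), 3.98 ± 0.23 (n = 4) and 4.26 ± 0.26 (n = 4) in the same order, and the lines overlapped. The line difference under FK866 was 0.31 (SE 0.26, adjusted p = 0.390, limma). A_33_P3423718 was well above background on 1 array of each group and had no group in which it could be tested, with means between 2.67 and 3.35.

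The probes of one gene thus disagreed on the line difference under FK866, from 6.22 through 2.03 to 0.31. The sequence entries listed by the array for A_33_P3210762 and A_33_P3423718 also include a transcript of LOC390660, elsewhere on chromosome 15, and whether they separate the loci was not tested. LOC390660 has 3 probes of its own. A_33_P3286722 was not well above background on any array, A_33_P3253634 was 0.71 higher in CEM RES under FK866 (SE 0.21, adjusted p = 0.0216, limma) and A_33_P3261828 differed by 0.02 (SE 0.34, adjusted p = 0.969).

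**Figure D2:**
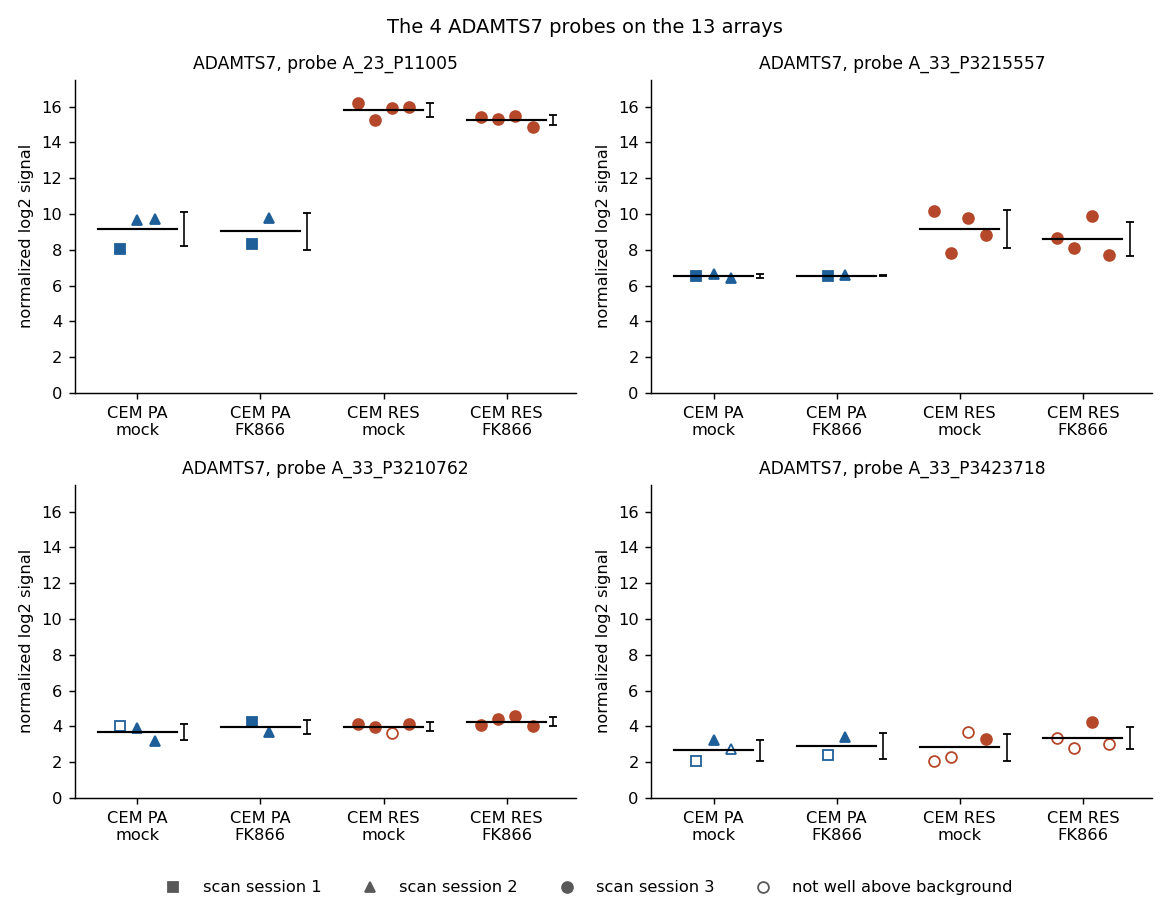
Normalized log2 signal of the 4 ADAMTS7 probes on the 13 arrays, drawn on the same scale as the brightest probes (points: arrays, lines: group means, bars: SD, open points: not well above background). A_23_P11005 separates the lines by over 5 log2 units, A_33_P3215557 by less with a wide spread in CEM RES, and the lower 2 panels show overlapping groups between 2 and 5.

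TINAGL1 was also high in CEM RES. It read 5.26, 6.93 and 6.75 on CEM PA mock, 5.26 and 6.87 on CEM PA FK866, 13.53, 12.29, 12.87 and 12.70 on CEM RES mock and 12.37, 12.19, 12.11 and 11.88 on CEM RES FK866 arrays. All 13 arrays were well above background, and the session 1 arrays were again the lowest. Under FK866 the probe was 67.4-fold higher in CEM RES (log2 difference 6.07, SE 0.50, adjusted p = 1.2e-05, limma), second only to A_23_P11005. On mock arrays the difference of 6.53 had rank 3. The difference under FK866 was 5.27 without CEM PA FK866 replicate 1, 6.88 without replicate 2 and 5.07 with normexp background correction.

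**Figure D3:**
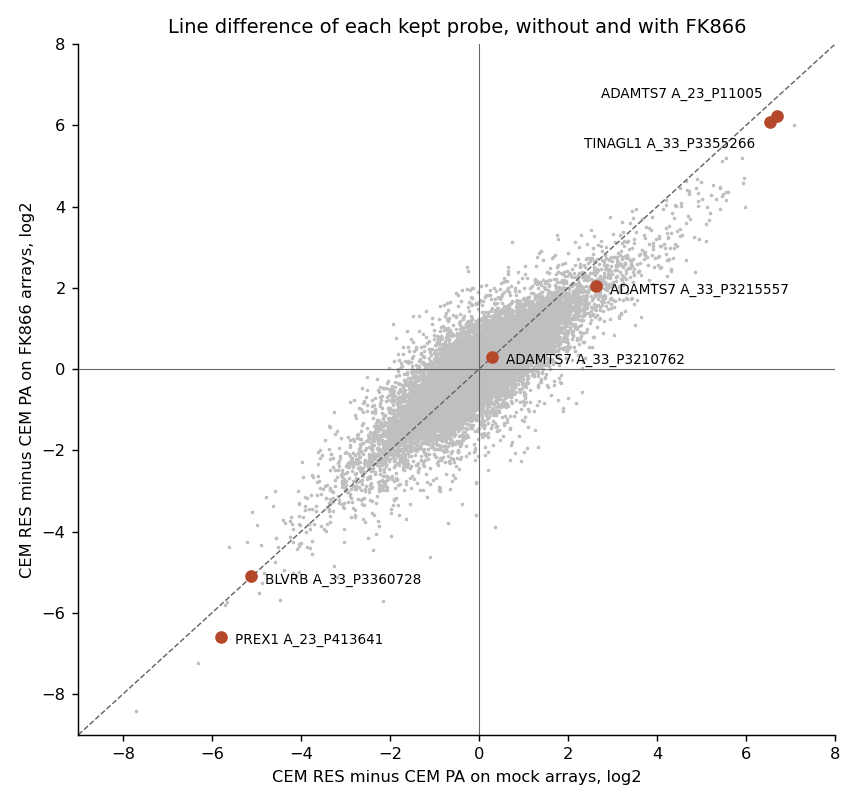
Line difference (CEM RES minus CEM PA, log2) of 22717 probes on mock arrays (horizontal axis) and on FK866 arrays (vertical axis), with the 6 member probes that could be tested in red and the line of equal values dashed. The axes use different arrays. The brightest ADAMTS7 probe and TINAGL1 lie at the upper end, PREX1 and BLVRB at the lower end, and the other 2 ADAMTS7 probes at 2.03 and 0.31 on the vertical axis.

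The profiles of A_23_P11005 and TINAGL1 were closer to each other than to any other gene. After each probe was centred on its mean, they differed by a root mean square of 0.19 log2 units over the 13 arrays, where the closest of 22679 probes outside the 4 genes differed by 0.62 from A_23_P11005 and by 0.59 from TINAGL1, the same snoRNA SNORA74A in both cases. A_23_P11005 differed from A_33_P3215557, a probe of its own gene, by 2.12. The arrays are shared, so this likeness is given without a test, and the part of line and session in it was not tested.

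In CEM PA the signal of both probes was a small fraction of their CEM RES level, lower in session 1 than in session 2. A_23_P11005 reached 0.454% and 0.545% of its CEM RES mock mean on the session 1 arrays and 1.38%, 1.45% and 1.48% on the session 2 arrays. TINAGL1 reached 0.518% on both session 1 arrays and 1.66%, 1.46% and 1.59% on the session 2 arrays. A_33_P3215557 did not follow, at 16.1% on both session 1 arrays and 15.2% to 17.4% on the session 2 arrays.

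**Figure D4:**
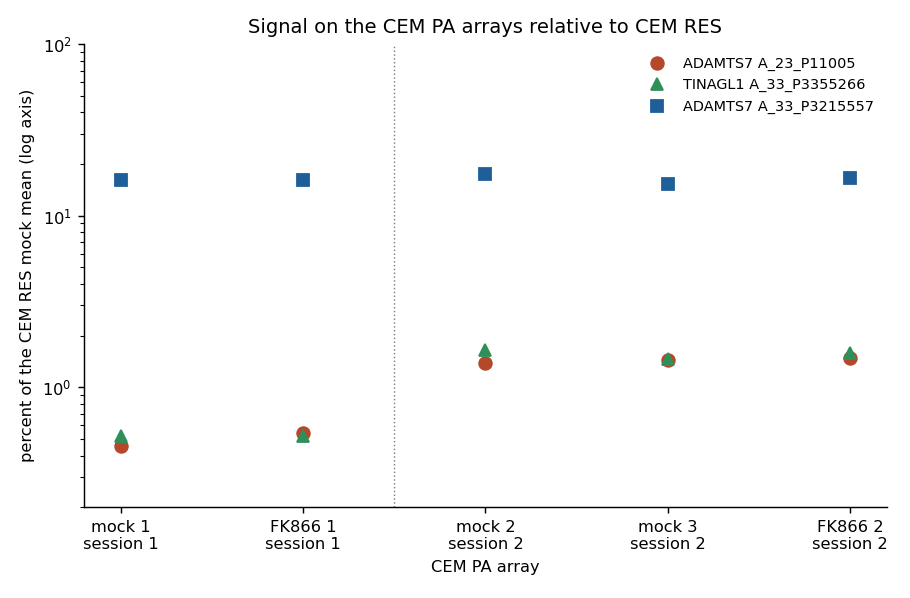
Signal on each CEM PA array as a percentage of the mean of the same probe over the 4 CEM RES mock arrays (log axis), for 2 ADAMTS7 probes and TINAGL1. The brightest ADAMTS7 probe and TINAGL1 lie together near 0.5% in session 1 and near 1.5% in session 2, and A_33_P3215557 lies near 16% throughout.

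The 2 probes share GGCGCCCCC, and no pair of the other member probes shared more than 7 letters. Of 34127 array probes 3 held these 9 letters on the probe strand, the other one being ENST00000369123. The 8 letters GCGCCCCC stood in 12 probes (0.0352%), all of them kept. The 10 that are not ADAMTS7 or TINAGL1 were all higher in CEM RES under FK866, with fitted values between 0.75 and 3.29 and a median of 2.40, and 8 of the 10 passed the test. Over all kept probes the median was 0.06 and the 5th and 95th percentiles were -1.50 and 1.41.

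The highest of these were B4GALT2, a galactosyltransferase, at least 6.52-fold higher (fitted at 3.29, CEM PA being partly below background), THC2686826 at 2.96 (SE 0.29), the homeobox gene UNCX at 2.74 (SE 0.41), the antisense RNA MYCNOS at 2.74 (SE 0.28) and the serine protease ST14 at 2.71 (SE 0.38). DUX4 and DUX4L4, near-identical repeat genes, were at 1.23 (adjusted p = 0.154) and 0.75 (adjusted p = 0.538) and did not pass. On mock arrays the 10 probes were between 1.63 and 4.56 higher. On the opposite strand, as GGGGGCGC, the letters stood in 6 probes, of which 4 were kept. NKX6-3 was at least 2.26-fold lower in CEM RES under FK866, ARHGAP35 was at -0.96, A_33_P3295705 was at -0.28 and SBNO2 at 0.53, and none was called higher.

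The other 8 letters of the stretch, GGCGCCCC, overlap GCGCCCCC and stood in 9 probes. Of the 5 kept ones outside the members, NP105946 was at 3.85, LGALS3 at 2.78, ENST00000369123 at 2.08, A_33_P3289391 at 0.59 and C19orf25 at -0.14, and 3 of them were called higher. On the opposite strand, as GGGGCGCC, these letters stood in 7 probes, and of the 5 kept 4 were above 0 and 3 called higher, among them NP511207 by at least 13.1-fold and SLURP1 by 0.67, while GLI2 was at 0.38 and ARHGAP35 at -0.96. The inner GGCGCC reads the same on both strands. The letters were looked for after the values were known, and a match is a description of a probe. Whether they have a part in the ADAMTS7 and TINAGL1 signals was not tested. No transcript sequences were searched, so whether A_23_P11005 and the TINAGL1 probe read ADAMTS7 and TINAGL1 transcripts was not tested either, and their values are those of the probes.

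**Figure D5:**
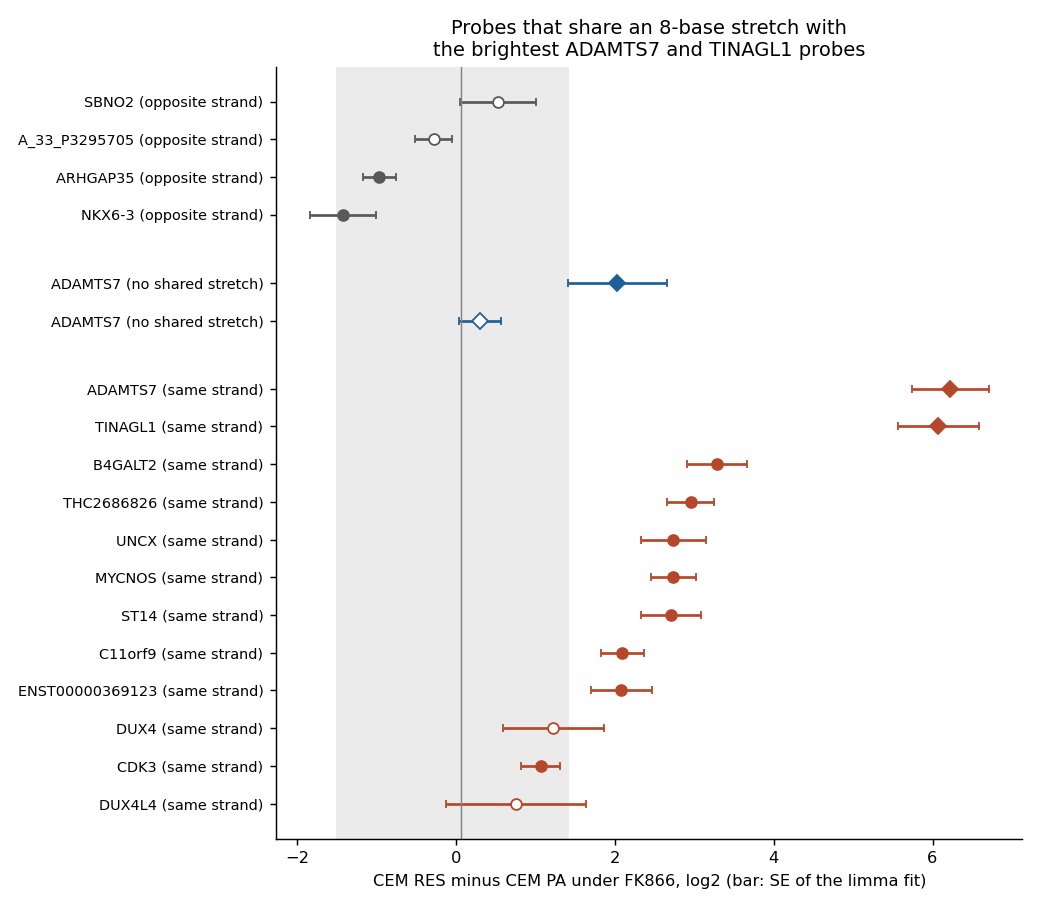
Line difference under FK866 (CEM RES minus CEM PA, log2, bars: SE of the limma fit) of kept probes, by the shared 8 bases GCGCCCCC. Red probes hold them on the probe strand, grey probes on the opposite strand, and 2 ADAMTS7 probes lack them (blue). Kept probes that hold only the other shared 8 bases, GGCGCCCC, are not drawn. Their fitted values ran from -0.14 to 3.85 on the probe strand and from 0.38 to 5.20 on the opposite strand. Diamonds are members, filled symbols passed at an adjusted p under 0.05, the vertical line is the median of all kept probes (0.06) and the band spans their 5th to 95th percentiles (-1.50 to 1.41). All 12 red symbols lie to the right of the median, and 2 of them are the members whose probes gave the stretch.

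Base composition moved with the line difference more broadly. The median line difference under FK866 was -0.06 in the 8126 kept non-member probes with at most 40% G and C, 0.11, 0.13 and 0.29 in the classes up to 50%, 60% and 70%, and 0.47 in the 186 above 70%. Probes higher by over 3 made up 0.234%, 0.411%, 0.804%, 1.71% and 2.15% of these classes in turn. Values of 2 gene families whose RNAs mostly lack a poly(A) tail, chosen after their values were seen, are given beside this. For 71 probes of replication-dependent histone genes the median line difference was 3.58 on mock and 2.55 on FK866 arrays, and 66 of them were higher in session 2 than in session 1 of CEM PA. For 33 probes of small nucleolar RNAs the medians were 1.69 and 1.08, and 25 were higher in session 2.

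The session pattern was shared by probes high in CEM RES. Of 222 non-member probes whose mock line difference exceeded 3, 193 (86.9%) were higher in session 2 than in session 1, with a median of 0.63, against 46.5% of all kept probes. A_23_P11005 and TINAGL1 were 1.53 and 1.60 higher. Among 152 probes with a mock line difference below -3 the share was 42.1%, and PREX1 and BLVRB differed between sessions by -0.14 and -0.13. These probe sets were chosen by a difference that includes the CEM PA mock arrays, which also enter the session difference. The session 1 arrays had fewer spots well above background, 26457 and 27615, against 30935 to 31882 on the session 2 arrays. The part of this gap in the session pattern, and of session in the line differences, was not tested.

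FK866 moved none of the member probes past the test in either line. In CEM PA 1.53% of probes were called (348, or 1218 with the replicate block), in CEM RES 0% (0 with limma, 1166 at an unadjusted p under 0.05), and 0.414% differed in response between lines (94, or 486 with the block). These comparisons share the mock arrays by which the genes were chosen. In CEM RES, the log2 difference of FK866 from mock arrays was -0.58 for A_23_P11005 (SE 0.39, adjusted p = 0.954), -0.58 for A_33_P3215557 (SE 0.51, adjusted p = 0.978), 0.28 for A_33_P3210762 (SE 0.21, adjusted p = 0.970) and -0.71 for TINAGL1 (SE 0.41, adjusted p = 0.951).

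Within slides the TINAGL1 difference was -0.54 on slide 5 and -0.88 on slide 6, and that of A_23_P11005 was -0.50 and -0.66. Same-numbered CEM RES arrays differed by -1.15, -0.10, -0.76 and -0.82 for TINAGL1, below 0 in 4 of 4 pairs, and with the replicate block its SE was 0.17 and its adjusted p 0.404. For A_23_P11005 the pairs differed by -0.79, 0.03, -0.42 and -1.11 and the adjusted p with the block was 0.404 too. In CEM PA, A_23_P11005 was 0.26 higher on FK866 than mock within session 1 and 0.07 higher within session 2, although the pooled means differed by -0.11 (SE 0.51, adjusted p = 0.965), since the groups hold sessions in different shares. TINAGL1 differed by 0.03 within session 2, and its pooled difference was -0.25 (SE 0.53, adjusted p = 0.898). The line responses differed by -0.47 (SE 0.64, adjusted p = 0.812) for A_23_P11005, by -0.46 (SE 0.67, adjusted p = 0.827) for TINAGL1 and by 0.03 (SE 1.06, adjusted p = 0.995) for BLVRB. With 2 CEM PA FK866 arrays these intervals are wide, and they do not show that the lines respond alike.

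For each gene the 3 genes with the most similar profile over the 13 arrays were taken. PREX1 was followed by CST3 (root mean square difference 0.37), the cysteine protease inhibitor cystatin C, HDDC2 (0.63) and FABP6 (0.66), a bile acid binding protein. Their line differences under FK866 were -5.80 for CST3, -5.25 for FABP6 and at least 50.5-fold for HDDC2, which was not well above background in CEM RES. This CST3 probe was well above background on 1 of 4 CEM RES mock and 4 of 4 CEM RES FK866 arrays. CST3 has a further probe, A_33_P3228271, that went the other way, at 1.05 (SE 0.21, adjusted p = 0.00263, limma), so its 2 probes were called in opposite directions.

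BLVRB was most like FABP6 (0.72), the receptor phosphatase PTPRJ (0.78) and the peroxidasin PXDN (0.93). PTPRJ was at least 5.25-fold and PXDN at least 8.66-fold lower in CEM RES under FK866. A_23_P11005 was most like SNORA74A, NP511207 (0.66) and a histone transcript, ENST00000358739 (0.72), and TINAGL1 like SNORA74A, NP511207 (0.60) and HAPLN2 (0.70), a link protein of the extracellular matrix. SNORA74A was at least 10.5-fold and NP511207 at least 13.1-fold higher in CEM RES under FK866, ENST00000358739 was 4.59 and HAPLN2 5.20 higher on the log2 scale.

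For the genes around each member, 1 probe per gene was used, the brightest kept one, and over 17563 such genes 18.5% were called higher and 16.8% lower in CEM RES under FK866 (24.6% and 22.9% on mock arrays), with a median difference of 0.09. Of 36 genes that activate or carry out Rac signalling around P-Rex1, 35 were tested, 7 were higher and 10 lower, with a median of -0.20. PREX2, the closest relative of PREX1, was at least 3.31-fold higher in CEM RES (log2 difference 2.21, SE 0.34, adjusted p = 4.6e-04, limma), the direction opposite to PREX1. CYFIP2 of the WAVE complex was 1.15 and ELMO1, a partner of the DOCK exchange factors, 1.08 higher. The difference was -1.51 for PIK3R5, which links PI3K gamma to G protein beta-gamma, -1.38 for ELMO2 and -0.96 for WASF2. RAC1, RAC2, VAV1 and TIAM1 did not pass, but their relatives RAC3 at -0.75 and VAV2 at -0.87 were lower and TIAM2 at 0.90 was higher. Without CEM PA FK866 replicate 1 the counts were 4 and 4, and without replicate 2 they were 2 and 5.

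Of 32 genes of the ADAMTS and ADAMTSL family and their matrix partners, 17 were tested, 3 were higher and 4 lower in CEM RES under FK866, with a median of 0.09. ADAMTS19 was 1.72 (SE 0.15), ADAMTS1 0.92 (SE 0.24) and the matrix protein THBS1 0.91 (SE 0.27) higher. ADAMTS6 was at least 3.74-fold lower, as was the convertase FURIN by at least 3.18-fold, and ADAMTS10 differed by -1.07 (SE 0.33). Without CEM PA FK866 replicate 1, and likewise without replicate 2, 1 gene was called in each direction.

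Of 31 cathepsins and matrix partners of TINAGL1, 25 were tested, 4 were higher and 3 lower, with a median of 0.29. CST3, here by A_33_P3228271, its brightest kept probe on average, was 1.05 higher, the carboxypeptidase CTSA 0.85 and the inhibitor CSTB 0.80. The cysteine cathepsin CTSO differed by -3.13 (SE 0.64), the integrin subunit ITGAV by -1.31, and CTSZ was at least 3.02-fold lower. The higher calls fell to 2 without CEM PA FK866 replicate 1.

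Of 26 genes of heme synthesis, heme breakdown and flavin reduction, 25 were tested, 4 were higher and 6 lower, with a median of 0.03. BLVRA, the other biliverdin reductase, differed by -1.63 (SE 0.26, adjusted p = 5.7e-04, limma), the same direction as BLVRB. The difference was -0.89 for the heme synthesis enzyme CPOX and -0.87 for the ferritin light chain FTL. The mitochondrial transporter ABCB10 was 1.22 and the P450 reductase POR 1.11 higher, and the heme synthesis enzyme UROS was higher too (adjusted p = 0.0032, limma). The heme oxygenase HMOX1 was at least 1.55-fold lower, and HMOX2 did not pass. Without CEM PA FK866 replicate 1 or replicate 2 the lower calls fell to 1 and 3. In none of the 4 lists did FK866 move a gene past the test in either line, and no difference in response between lines passed it.

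Most tested genes beside ADAMTS7, TINAGL1 and BLVRB on the chromosome were not called (9 of 12, 11 of 14 and 19 of 28), and 16.7%, 14.3% and 21.4% were called higher, near the 18.5% of all genes. Within 500 kb of the PREX1 probe 5 genes were tested, 3 higher and 0 lower in CEM RES under FK866, the transcript BC012881 by 1.74, ARFGEF2 by 0.51 and STAU1 by 0.44. Around ADAMTS7, 2 of 12 were higher, PSMA4 by 0.91 and WDR61 by 0.62, and DNAJA4 was at least 8.57-fold lower. Around TINAGL1, 2 of 14 were higher, PTP4A2 by 1.60 and A_33_P3339202 by 0.92, and SPOCD1 was at least 3.97-fold lower. Around BLVRB, 6 of 28 were higher, led by ZNF780B at least 2.90-fold (log2 1.55), CNTD2 at 1.25 and AK128779 at 1.18, and 3 were lower, TTC9B at -0.92, ITPKC at -0.71 and SERTAD1 at -0.71. SERTAD3, the closest to the BLVRB probe, differed by 0.41 (SE 0.41, adjusted p = 0.467, limma). Without CEM PA FK866 replicate 1 the higher and lower calls were 1 and 0 around PREX1, 0 and 1 around ADAMTS7, 1 and 1 around TINAGL1 and 3 and 1 around BLVRB, and without replicate 2 they were 0 and 0, 0 and 1, 1 and 1, and 1 and 1. PSMA4 was called in 9, STAU1 in 13 and A_33_P3339202 in 14 of 25 alternatives.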

How the data were processed

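RNA was hybridized by the authors to 1-colour Agilent arrays, whose deposited intensity values (processed signal, background-subtracted by Agilent Feature Extraction 10.7.7.1 per the labels) were read for 13 arrays. The log2 of the processed signal was taken, outlier spots were set aside, control spots removed, arrays quantile normalized and spots of a probe averaged. A probe was kept if 1 or more groups had it clearly over background (the scanner software's own flag) on all their arrays. One model of the 4 groups was fitted with limma 3.58.1 (R 4.3.3), with Benjamini-Hochberg adjustment over the kept probes, and was tested on simulated data. The authors' deposited log2 table, quantile normalized by them, served as an alternative. The number of arrays limits the precision.

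The members and lists were chosen with earlier results of these data known. Most genes were named by fixed rules: all member probes, the 3 genes most alike, and up to 3 called genes per direction in each list. The last rule also held for genes within 500 kb, by hg19 probe position. Others were named outside these rules, among them RAC1, RAC2, RAC3, VAV1, VAV2, TIAM1, TIAM2, HMOX1, HMOX2 and SERTAD3. Genes named for shared letters, base composition and lack of a tail were chosen after their values were seen. Deviations of same-numbered samples from their group means correlated at 0.199 to 0.474, and differently numbered samples were not compared. The main model held no pairing. Replicate numbers served as pairs only in the replicate block, an alternative, and in the pair differences given. CEM PA replicate 1 samples shared slide 1 and scan session 1, so pair and batch cannot be told apart there.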

Additional observations from a re-analysis of the deposited data

Results flagged for a closer look

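No member probe passed the test for a difference between the lines in its FK866 response. None of the 14 sets of 4 CEM RES arrays of a member probe had an array apart from the others by Dixon's test at 95%. Of 96 such sets of the other genes named, 8 had one array apart, where chance gives about 1 in 20. On CEM RES FK866 arrays these were CYFIP2 (11.03 on replicate 1, others from 11.64), PSMA4 (14.42 on replicate 4, others from 14.85) and PTPRJ (2.92 on replicate 3, others up to 1.13). On CEM RES mock arrays they were BLVRA (9.67 on replicate 1, others up to 8.90), PXDN (1.73 on replicate 1, others up to 0.84), WDR61 (13.12 on replicate 3, others up to 12.85), and SNORA74A (7.27, others from 8.09) and ENST00000358739 (8.79, others from 9.66), both on replicate 2.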

How the results depend on the processing

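The line difference under FK866 kept its direction and its call for the brightest probe of each gene under all alternatives run. Leaving out 1 array at a time it ranged from -6.92 to -6.41 for PREX1, 5.50 to 6.94 for A_23_P11005, 5.27 to 6.88 for TINAGL1 and -5.94 to -4.70 for BLVRB. The normexp background correction gave -4.62 for PREX1, -2.96 for BLVRB and 5.07 for TINAGL1. Probes called ranged from 4186 to 8685 (line difference under FK866), 9435 to 10718 (without drug), 32 to 384 (response of CEM PA), 0 to 3 (CEM RES) and 10 to 140 (difference in response) when 1 array was left out. Without CEM PA FK866 replicate 1 or 2, each of which leaves 1 array in that group, assumed to vary like the others, the counts were 4186 and 5014 for the line difference, 33 and 32 for the CEM PA response and 17 and 10 for the difference in response. Without CEM PA mock replicate 2 the last pair were 113 and 47, and the difference in response gave 47 to 61 without CEM RES FK866 replicate 3 or 4 or CEM RES mock replicate 2 or 3. The CEM PA response gave 1831 calls with array weights, 90 with 1 probe per gene, 191 with no filter, 563 with normexp, 3 with only its own groups and 7 with slide as a block. The difference in response gave 453, 23, 56 and 170 under the first 4 of these. The replicate block gave 1218 and 486 and changed no call of a member.

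Responses of members that did not pass changed sign in places, and the cause was not tested. In CEM PA, A_23_P11005 read 0.26 with slide, 0.18 with the replicate block and 0.15 with session as a block, and -0.83 to 0.61 with 1 array left out. TINAGL1 read 0.0 and 0.0175 with slide and session, and -1.06 to 0.56. A_33_P3215557 read -0.14 with 75th percentile scaling, -0.0478 with array weights, -0.0019 with slide and -0.0375 with the replicate block, and -0.0375 to 0.0607. A_33_P3210762 ranged from -0.0111 to 0.52. In CEM RES, PREX1 ranged from -0.53 to 0.0185 and BLVRB from -0.43 to 0.80. The difference in response ranged from -1.19 to 0.25 for A_23_P11005, -0.24 to 0.29 for A_33_P3210762, -1.27 to 0.35 for TINAGL1 (0.0366 with array weights) and -0.81 to 0.43 for BLVRB (-0.0342 with 75th percentile scaling, -0.0679 with normexp). BLVRB in CEM RES and the dimmer ADAMTS7 probes lay at the limit of signal over background.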
